A study of Homo sapiens with 8 samples.

Results

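The genes described here are IL20RB, 8 further genes of the class II cytokine receptor family (IL20RA, IL22RA1, IL10RB, IFNAR1, IFNAR2, IFNGR1, IFNGR2 and IFNLR1), and NCK1, the gene that overlaps IL20RB on the same strand. These are 10 of the 78932 gene identifiers in the deposited tables, found by their Ensembl identifiers. IL20RB was chosen because it was among the largest increases in the comparison made here, so its change is described and not tested. The other 9 were chosen by family or position, with earlier results of these data known. The cells were HCT116, an established human colorectal cancer line, carrying a degradation tag on NUDT21, a subunit of the cleavage factor that binds UGUA elements upstream of poly(A) sites. There were 4 libraries from cells given DMSO with JTE-607 and 4 from cells given dTAGV1 with JTE-607. DMSO is the solvent control. The compound dTAGV1 recruits a ubiquitin ligase to the tagged protein, and JTE-607 inhibits CPSF3, the endonuclease that cuts pre-mRNA before polyadenylation. All 8 libraries therefore share the tagged line and JTE-607, and cells without JTE-607 were not analysed here. The labels do not say whether the line is 1 clone, whether the libraries of a group came from separate cultures, or at which dose and time the compounds were given. The p-values below then measure only the spread between these libraries, which may be technical.

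Class II cytokine receptors are single-pass membrane proteins that work as pairs of a ligand-binding chain and an accessory chain. IL20RB pairs with IL20RA or IL22RA1 to bind IL-20 and IL-24, and with IL20RA to bind IL-19. IL10RB is the accessory chain shared by the receptors for IL-10, IL-22, IL-26 and the type III (lambda) interferons, where IL22RA1 and IFNLR1 supply the specific chain for IL-22 and lambda interferon. IFNAR1 with IFNAR2 binds type I interferons, and IFNGR1 with IFNGR2 binds interferon gamma. The chains carry no kinase of their own and signal through JAK1, JAK2 or TYK2 to STAT proteins. In gut epithelium, IL-22 and lambda interferon receptors are known for barrier and antiviral responses.

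The values are counts of 3′-end reads on the strand of the gene, printed as counts or as CPM (counts divided by the TMM-scaled library size, times 1000000). The kit gives reads near the poly(A) end of a transcript, so levels of different genes were compared in CPM without a length correction. Each library held 8649238 to 9977205 reads, of which 3447842 to 4291256 were counted to genes. NUDT21 had 104, 139, 131 and 129 counts with DMSO and 34, 29, 15 and 43 with dTAGV1, which places each library on the side its label gives. The tag acts on the protein, which was not measured. Of the epithelial and colon markers, EPCAM, CDH1, KRT8, KRT18, KRT19 and CDX2 passed the low-count filter, while CDX1 had no count and VIL1 and LGALS4 had at most 3 and 1. The 9 epithelial and colon markers summed to 1575 to 1831 CPM with DMSO and 1253 to 1353 with dTAGV1. EPCAM was called higher, with a log2 fold change of 0.28, and KRT18 and KRT19 lower, with -0.60 and -0.65 (dTAGV1 against DMSO), and their part in any result was not tested. The 5 immune markers summed to at most 1.91 CPM with DMSO and 2.55 CPM with dTAGV1 in any library. The 3 endothelial markers summed to 1.64 to 2.93 CPM with DMSO and 0.295 to 0.850 with dTAGV1, and their part in any result was not tested. The 4 fibroblast markers summed to 15.9 to 20.8 CPM with DMSO and 11.2 to 15.9 with dTAGV1, nearly all from COL1A1, with DCN at 0. In bulk RNA, fewer cells that express a gene and less of its RNA per cell cannot be told apart.

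The annotated 3′ ends are shown first, because the kit gives reads near the poly(A) end of a transcript. The counts hold no read positions, so whether a read came from an annotated end is not known. Each line gives 30 bases around the poly(A) signal in the last 50 bases of a GENCODE 29 transcript, in the direction of transcription, with the hexamer AATAAA in capitals. The coordinates are on GRCh38 and counted from 1. IL20RB, NCK1, IFNGR1, IL22RA1 and IFNLR1 are shown as the genes whose counts are compared below, and IFNAR2-204 as an early end of IFNAR2.
IL20RB, IL20RB-201, chr3:137011036-137011065, plus strand: cagaattcagcaAATAAAaagggccaccct
NCK1, NCK1-201, chr3:136949089-136949118, plus strand: acaactgttggaAATAAAaatcacttaatt
IFNGR1, IFNGR1-201, chr6:137197487-137197516, minus strand: tagagatttttaAATAAAgaattttaaaac
IL22RA1, IL22RA1-201, chr1:24119771-24119800, minus strand: tgggcagtgcccAATAAAcggtagctattt
IFNLR1, IFNLR1-201, chr1:24154179-24154208, minus strand: ctaaactgtttaAATAAAgagctctatttt
IFNAR2, IFNAR2-204, chr21:33262721-33262750, plus strand: tattatgtagaaAATAAAgagcaaacagta

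Of the 10 genes, 7 had AATAAA in the last 50 bases of their representative transcript, 1 (IL10RB) had ATTAAA, and 2 (IFNAR1 and IFNAR2) had neither. Among 10641 tested protein-coding genes, 64.3% had AATAAA, 15.0% had only ATTAAA and 20.7% had neither. The motif TGTA, the DNA form of the UGUA element that NUDT21 binds, was counted in the last 100 bases of the same transcripts, on the transcript strand. It was found 0 times for IL20RB, IL22RA1, IFNLR1, IFNAR1 and IL10RB, once for NCK1, 2 times each for IFNGR1, IL20RA and IFNAR2-205, and 3 times for IFNGR2. At least 1 TGTA was present in 55.7% of the tested protein-coding genes. These are matches of letters in annotated transcripts, and the libraries do not show which elements were bound.

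IL20RB (ENSG00000174564, chr3:136946230-137011085, plus strand) encodes the beta chain of the IL-20 receptors. It had 5, 15, 11 and 14 counts in the 4 DMSO libraries and 78, 68, 114 and 120 in the 4 dTAGV1 libraries. Every dTAGV1 library was above every DMSO library, and the lowest dTAGV1 count was more than 4 times the highest DMSO count. The mean level was 2.85 ± 1.03 CPM (SD, n = 4) with DMSO and 26.2 ± 6.00 CPM (SD, n = 4) with dTAGV1. The fitted log2 fold change (log2FC, positive where dTAGV1 is higher) was 3.17 (SE 0.24), a 9.01-fold difference with a 95% interval of 6.42 to 12.6. The SE and interval do not account for the choice of IL20RB by this increase, so they serve as no test. This was the rank 45 increase of 12618 tested genes and rank 6 among the 9322 with a mean of at least 10 CPM. IL20RB passed the low-count filter through the dTAGV1 libraries, so its fold rests on few DMSO reads. No library held a read on the strand opposite to IL20RB.

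**Figure D1:**
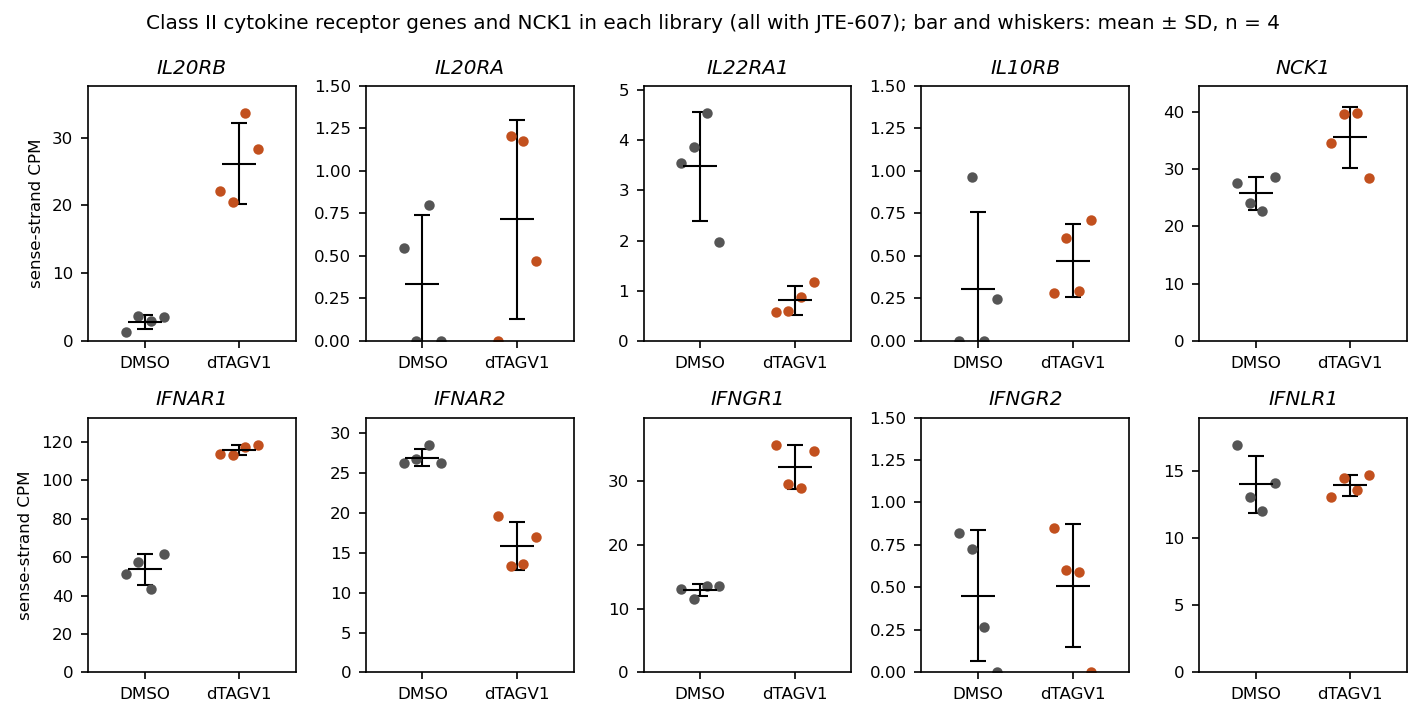
Sense-strand level (CPM, linear axes that start at 0 and differ between panels) of the 9 receptor genes and NCK1 in each of the 8 libraries. Points are libraries, and the bar and whiskers are the mean and SD of 4. IL20RB, IFNAR1 and IFNGR1 lie higher in every dTAGV1 library, IL22RA1 and IFNAR2 lie lower, and the groups overlap for the other 5.

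The gene bodies of NCK1 and IL20RB overlap by 3594 bases. That overlap comes only from IL20RB-204, a noncoding transcript that starts inside NCK1. The protein-coding IL20RB-201 starts 8042 bases past the end of NCK1, and IL20RB ends 61262 bases past it. The genes share 66 exonic bases, which are 2.67% of the exonic bases of IL20RB and 1.77% of those of NCK1. None of the shared bases lies in the last 500 bases of IL20RB-201 or NCK1-201. Reads at these annotated ends are therefore not ambiguous between the genes. The counts hold no read positions, so which transcript a read counted to IL20RB came from was not tested.

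**Figure D2:**
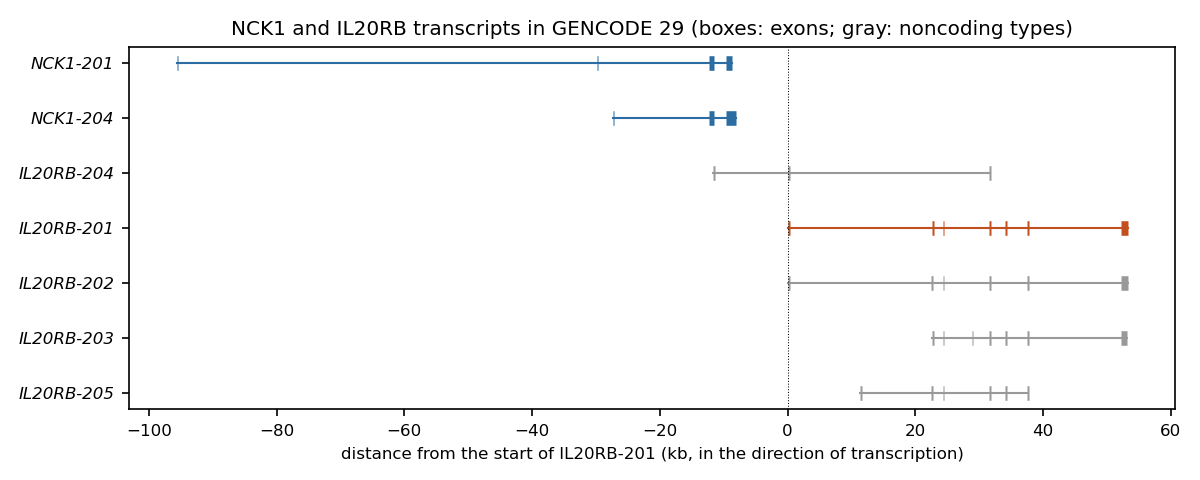
GENCODE 29 transcripts of NCK1 and IL20RB, plotted by distance in kb from the start of IL20RB-201. Boxes are exons, lines are introns, and gray marks transcripts of noncoding types. IL20RB-204 is the only IL20RB transcript that reaches into NCK1, and the 3′ ends of the genes lie 61262 bases apart.

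The stretch before the RefSeq start of IL20RB is given because this start lies beyond the end of NCK1. It holds the 250 bases before the RefSeq start, chr3:136957733-136957982 on GRCh38.p14, plus strand. The GENCODE start of IL20RB-201, at position 136957865, lies inside this stretch. The bases from that position on are therefore within the annotated span of IL20RB-201 and not upstream of it.
IL20RB: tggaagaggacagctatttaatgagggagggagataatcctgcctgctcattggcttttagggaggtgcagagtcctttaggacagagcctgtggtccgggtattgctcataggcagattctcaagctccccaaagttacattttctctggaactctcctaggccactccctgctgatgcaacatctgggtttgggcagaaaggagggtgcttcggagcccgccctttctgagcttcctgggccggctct
There are no capitals because none of the 4 motifs searched on both strands was found from 250 bases before to 50 after the RefSeq start. The motifs were TTCNNNGAA (STAT), TGANTCA (AP-1), GAAA followed after any 2 bases by GAAA (the core of the interferon-stimulated response element) and TATAAA. They occur in 7.66%, 7.71%, 3.57% and 11.5% of the 35116 RefSeq promoters of the same length. RefSeq promoters were found for 9 of the 10 genes, with 13 starts in all. A STAT match occurred for IFNLR1 and IL10RB, an AP-1 match for IL22RA1, a TATAAA match for IL20RA and for 1 start of NCK1, and no start had the interferon-response core.

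Of the partner chains of IL20RB, IL20RA was near the limit of detection and IL22RA1 was lower with dTAGV1. IL20RA (ENSG00000016402, chr6:136999971-137045180, minus strand), the alpha chain of the receptor for IL-19, IL-20 and IL-24, had 2, 0, 3 and 0 counts with DMSO and 0, 4, 4 and 2 with dTAGV1. These groups overlap, and the gene did not pass the low-count filter. A count of 0 allows up to 3 counts, which is 0.699 to 0.870 in each 1000000 gene counts of a library, so these counts are at the limit of detection. With no low-count filter, the log2FC of IL20RA was 1.02 (SE 0.89, edgeR, Benjamini-Hochberg adjusted p = 0.431), which did not pass the test. IL22RA1 (ENSG00000142677, chr1:24119771-24143121, minus strand), the specific chain for IL-22, had 13, 16, 17 and 8 counts with DMSO and 2, 2, 3 and 5 with dTAGV1. Its mean level was 3.48 ± 1.08 CPM (SD, n = 4) with DMSO and 0.809 ± 0.286 CPM (SD, n = 4) with dTAGV1, and the groups did not overlap. IL22RA1 did not pass the low-count filter, so it has no test among the 12618 genes. With that filter removed, its log2FC was -2.05 (SE 0.48, edgeR, Benjamini-Hochberg adjusted p = 0.000148). It passed the filter without DMSO replicate 4 and without any 1 of the 4 dTAGV1 libraries, with log2FC values of -2.30 to -1.90. With a group of 3 it did so only through the DMSO libraries, where it is high, so these values give no further support.

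The balance of IL20RB and IL22RA1 counts differed between the groups without overlap. The count of IL20RB divided by that of IL22RA1, a ratio that no library scaling affects, was 0.385 to 1.75 with DMSO and 24 to 39 with dTAGV1. IL20RB was chosen for its increase, so the ratio is a description. IL22RA1 had only 2 to 5 counts with dTAGV1, so the ratios there rest on few reads. The shared chain IL10RB (ENSG00000243646, chr21:33266358-33310187, plus strand) had 0, 4, 0 and 1 counts with DMSO and 1, 2, 1 and 3 with dTAGV1, and was not tested. In GENCODE 29, 85.2% of the last 500 bases of IL10RB-201 lie in exons of the same-strand readthrough gene IFNAR2-IL10RB. That gene was listed at 0 in all 8 libraries. STAR assigns a read in exons of more than 1 gene to neither, and the annotation release that the authors used is not given in the sources used here. The near-absence of IL10RB counts therefore does not show a low level of its RNA.

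Among the 5 tested genes other than IL20RB, 3 were called higher with dTAGV1 (IFNGR1, IFNAR1 and NCK1) and 1 lower (IFNAR2), while IFNLR1 did not pass the test. Over all 12618 tested genes, 57.9% were called, 29.4% higher and 28.5% lower, so a call in itself is common here. Groups without overlap occurred in 25.8% of tested genes in the higher and 25.1% in the lower direction. The median absolute log2FC over all tested genes was 0.42. The number called lower was 2 without DMSO replicate 4 and without each single dTAGV1 replicate, where IL22RA1 entered through its DMSO counts as described above.

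The gene counts of the type I interferon receptor chains moved in opposite directions. IFNAR1 (ENSG00000142166, chr21:33324477-33359862, plus strand), the low-affinity signalling chain, had 188, 239, 163 and 250 counts with DMSO and 401, 375, 399 and 501 with dTAGV1. All 4 dTAGV1 libraries were above all 4 DMSO libraries. The mean rose from 53.6 ± 7.98 to 115.7 ± 2.66 CPM (mean ± SD, n = 4 each), a log2FC of 1.11 (SE 0.10, edgeR quasi-likelihood test with Benjamini-Hochberg adjustment, adjusted p = 5.33e-10). IFNAR2 (ENSG00000159110, chr21:33229901-33265675, plus strand), the high-affinity chain, had 96, 111, 107 and 106 counts with DMSO and 69, 44, 46 and 72 with dTAGV1. Here every dTAGV1 library was below every DMSO library. The mean fell from 26.9 ± 1.10 to 15.9 ± 3.00 CPM (mean ± SD, n = 4 each), with a log2FC of -0.76 (SE 0.15, edgeR, Benjamini-Hochberg adjusted p = 9.67e-05). The ratio of IFNAR1 to IFNAR2 counts was 1.52 to 2.36 with DMSO and 5.81 to 8.67 with dTAGV1. Some IFNAR2 reads may be lost to counting, as described below, so the ratio compares counts and not RNA levels.

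The decrease of IFNAR2 lay in reads from its distal 3′ end. IL10RB-DT, a divergent noncoding gene on the opposite strand, has an exon at chr21:33263873-33265902 that covers the ends of IFNAR2-201 and IFNAR2-202 (position 33264525) and of IFNAR2-205 (position 33265675). The ends of IFNAR2-204 (33262756) and IFNAR2-206 (33262855) lie before that exon. Counting without regard to strand drops reads where the genes overlap, so the sense count minus the strandless count gives the IFNAR2 reads inside IL10RB-DT exons. That difference matched the opposite-strand count of IL10RB-DT to within 1 read in all 8 libraries. The reads inside the exons numbered 73, 86, 87 and 100 with DMSO and 54, 30, 29 and 45 with dTAGV1. The groups did not overlap, and the means were 22.2 ± 2.21 and 10.9 ± 3.08 CPM (mean ± SD, n = 4 each).

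The other IFNAR2 reads numbered 23, 25, 20 and 6 with DMSO and 15, 14, 17 and 27 with dTAGV1, a total of 74 against 73. Their means were 4.78 ± 2.24 and 4.97 ± 1.01 CPM (mean ± SD, n = 4 each), and the groups overlapped. The share of IFNAR2 reads inside the exons was 76.0%, 77.5%, 81.3% and 94.3% with DMSO and 78.3%, 68.2%, 63.0% and 62.5% with dTAGV1. The mean shares were 82.3% ± 8.33 and 68.0% ± 7.31 (mean ± SD, n = 4 each), and dTAGV1 replicate 1 lay within the range of the DMSO libraries. Counted without strand, IFNAR2 had a log2FC of 0.05 (edgeR, Benjamini-Hochberg adjusted p = 0.911), which reflects only the reads outside these exons. The opposite-strand count of IL10RB-DT, a gene singled out after its values were seen, had a log2FC of -1.14 (SE 0.18, edgeR, Benjamini-Hochberg adjusted p = 3.21e-06) where 48.4% of 3324 genes were called. It counts the same reads and is no second measurement. Reads before the exon are in part lost to counting, because 60.8% of the last 500 bases of IFNAR2-204 and 100% of those of IFNAR2-206 are shared with IFNAR2-IL10RB on the same strand.

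**Figure D3:**
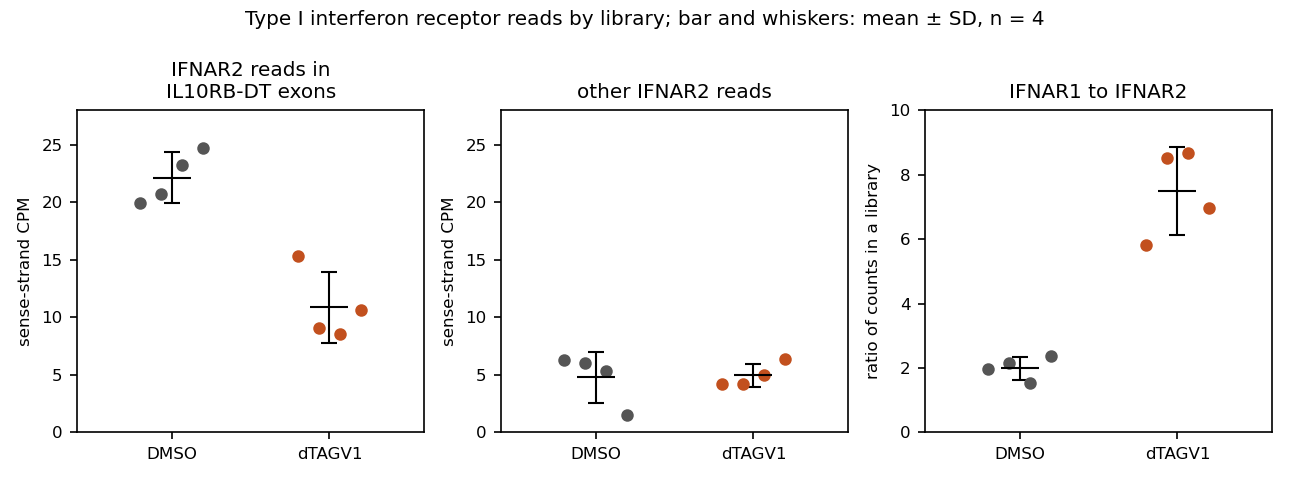
Left and middle, IFNAR2 reads inside and outside IL10RB-DT exons (sense-strand CPM), and right, the ratio of IFNAR1 to IFNAR2 counts in each library. Points are libraries, with the mean and SD of 4. Reads inside the exons are lower in all 4 dTAGV1 libraries, the other reads overlap between groups, and the ratio is at most 2.36 with DMSO and at least 5.81 with dTAGV1.

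In the interferon gamma receptor only the ligand-binding chain could be tested. IFNGR1 (ENSG00000027697, chr6:137197484-137219449, minus strand) had 48, 48, 51 and 55 counts with DMSO and 126, 98, 98 and 147 with dTAGV1, with no overlap between groups. It rose from 13.0 ± 0.960 to 32.2 ± 3.50 CPM (mean ± SD, n = 4 each), a log2FC of 1.32 (SE 0.14, edgeR, Benjamini-Hochberg adjusted p = 2.11e-08). That is a 2.49-fold increase, with a 95% interval of 2.03 to 3.05. IFNGR2 (ENSG00000159128, chr21:33402896-33479348, plus strand), the signalling chain, had 3, 3, 1 and 0 counts with DMSO and 3, 2, 2 and 0 with dTAGV1. It did not pass the filter, and its groups overlap. No same-strand gene shares its exons in GENCODE 29, while TMEM50B overlaps it on the other strand. Its low count is reported as deposited and is not read as a low level of its RNA, since the authors' annotation is not given in the sources used here.

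IFNLR1 (ENSG00000185436, chr1:24154157-24187959, minus strand), the specific chain of the lambda interferon receptor, did not pass the test. It had 62, 54, 45 and 57 counts with DMSO and 46, 48, 46 and 62 with dTAGV1, and the groups overlapped. The means were 14.0 ± 2.13 and 13.9 ± 0.775 CPM (mean ± SD, n = 4 each). The log2FC was -0.0040, with a 95% interval of -0.35 to 0.34 (edgeR, Benjamini-Hochberg adjusted p = 0.985). A change larger than about 1.27-fold in either direction lies outside that interval. IFNLR1 lies 11036 bases from IL22RA1 on the same strand, and the ratio of their counts was 2.65 to 7.13 with DMSO and 12.4 to 24 with dTAGV1. The dTAGV1 ratios rest on IL22RA1 counts of only 2 to 5.

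NCK1 (ENSG00000158092, chr3:136862208-136949823, plus strand) encodes an adaptor with SH2 and SH3 domains that links phosphorylated receptors to actin regulators. It had 101, 100, 85 and 116 counts with DMSO and 122, 131, 135 and 120 with dTAGV1. The mean rose from 25.8 ± 2.84 to 35.6 ± 5.36 CPM (mean ± SD, n = 4 each), a log2FC of 0.46 (SE 0.13, edgeR, Benjamini-Hochberg adjusted p = 0.00490). The groups overlapped slightly in CPM, since dTAGV1 replicate 4 was at 28.4 and DMSO replicate 4 at 28.7. The count of IL20RB divided by that of NCK1 was 0.0495 to 0.15 with DMSO and 0.519 to 1 with dTAGV1. NCK1-DT, the noncoding gene that starts 154 bases before NCK1 on the other strand, did not pass the test, with a log2FC of 0.24 (SE 0.19, edgeR, Benjamini-Hochberg adjusted p = 0.272).

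The order of the levels differed between the groups. IL10RB and IFNGR2 are left out of it, because their counts are not read as levels of their RNA. IFNAR2 is placed by its counted reads, which may miss reads from its early ends. With DMSO, IFNAR1 was highest, followed by IFNAR2 and NCK1, then IFNLR1 and IFNGR1, then IL22RA1 and IL20RB, and last IL20RA. With dTAGV1, IFNAR1 was again highest, followed by NCK1, IFNGR1 and IL20RB, then IFNAR2 and IFNLR1, and last IL22RA1 and IL20RA. Neighbours named together had overlapping ranges over the 4 libraries, and consecutive sets did not overlap where they meet. IL20RB thus moved from the level of IL22RA1 to that of IFNGR1 and NCK1.

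The remaining class II receptor genes added little. F3, which encodes tissue factor and belongs to the family by its fold, was at 9.29 ± 0.688 CPM (SD, n = 4) with DMSO and 10.4 ± 1.65 CPM with dTAGV1 and did not pass the test. IL10RA, the IL-10-binding chain, did not pass the filter at 2.39 and 1.09 CPM on average, and IL22RA2, a soluble IL-22-binding protein, had no count. Of 17 class II ligand genes, none passed the filter and 14 had no count in any library, IL19, IL20 and IL24 among them. IFNE, an epithelial type I interferon, had up to 17 counts in a library and averaged 2.40 CPM with DMSO and 0.274 CPM with dTAGV1. With no low-count filter its log2FC was -3.01 (edgeR, Benjamini-Hochberg adjusted p = 4.97e-05). IFNE had 42 counts over all 8 libraries, and its dTAGV1 mean lies below the 0.699 to 0.870 that a count of 0 allows. Its fold therefore rests on few reads.

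Of 9 genes for the kinases and transcription factors that these receptors use, 7 were tested, and 5 were higher with dTAGV1, 0 lower (1 when libraries were scaled by their size alone) and 2 not called. Their median log2FC was 0.40, against 0.015 over all tested genes, of which 29.4% were called higher and 28.5% lower. STAT3, the main factor downstream of IL-20, IL-22 and IL-10, rose from 173 ± 11.5 to 283 ± 40.5 CPM (mean ± SD, n = 4 each), with a log2FC of 0.71. JAK1, the kinase on the ligand-binding chains, had a log2FC of 0.68, TYK2 0.56, JAK2 0.40 and STAT2 0.33. STAT5A and IRF9 were listed at 0. This is reported as deposited and is not read as absence of their RNA, since the authors' annotation is not given in the sources used here. The count of 5 fell to 3 without DMSO replicate 2, without dTAGV1 replicate 1 or without dTAGV1 replicate 2.

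All 13 negative regulators were tested, and 3 were higher, 3 lower and 7 not called, with a median log2FC of 0.11. The shares over all tested genes were 29.4% higher and 28.5% lower. SOCS3, the inhibitor induced by STAT3, rose from 39.1 ± 3.05 to 63.3 ± 8.58 CPM (mean ± SD, n = 4 each), a log2FC of 0.70. PIAS1 and PIAS2, which attach SUMO and restrain STATs, had log2FC values of 0.58 and 0.37. SOCS2 fell by 0.72 on the log2 scale, and the phosphatases PTPN11 and PTPN1 by 0.52 and 0.31. CISH had the lowest value, -0.81, at 5.16 ± 2.16 and 2.95 ± 1.54 CPM, and did not pass the test. USP18, which binds IFNAR2 and damps type I signalling, was not called at 13.0 ± 2.74 and 15.6 ± 5.86 CPM.

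Of 21 STAT and interferon target genes, 11 were tested, and 7 were higher, 2 lower and 2 not called, with a median log2FC of 0.81. Over all tested genes, 29.4% were called higher and 28.5% lower. IFIT2, an RNA-binding antiviral protein, rose from 12.2 ± 2.55 to 82.1 ± 17.0 CPM (mean ± SD, n = 4 each), a log2FC of 2.76 (SE 0.17). GBP2, a guanylate-binding protein induced by interferon gamma, rose from 1.14 ± 0.596 to 6.87 ± 0.380 CPM, with a log2FC of 2.54. GBP2 passed the low-count filter only through the dTAGV1 libraries, where it is high, so its fold rests on few DMSO reads. IFIT3, BCL3, IRF1, JUNB and IFIT1 had log2FC values of 1.53, 1.51, 1.35, 0.81 and 0.54. In the other direction, OAS3, a sensor of double-stranded RNA, fell from 67.0 ± 10.7 to 21.6 ± 2.66 CPM, a log2FC of -1.62. ISG15, a ubiquitin-like modifier, fell from 69.4 ± 10.4 to 37.8 ± 11.3 CPM. MCL1 and PIM1 were not called. MX1, OAS1, GBP1 and CXCL10 were among the 10 genes below the filter, with at most 12, 12, 2 and 1 counts in a library. At a mean of at least 100 counts, the number called higher was 4.

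The class I cytokine receptors, the sister family with a different extracellular fold, were counted in the same way. Of 22 genes, 9 were tested, and 5 were higher, 1 lower and 3 not called, with a median log2FC of 1.28. Among all tested genes, 29.4% were called higher and 28.5% lower. IL6ST, the shared chain gp130, rose from 41.2 ± 1.28 to 131.2 ± 5.15 CPM (mean ± SD, n = 4 each), a log2FC of 1.67. OSMR, IL15RA, IL13RA1 and LIFR, the chains for oncostatin M, IL-15, IL-13 and leukaemia inhibitory factor, had log2FC values of 1.58, 1.56, 1.47 and 1.28. LEPR, the leptin receptor, fell from 15.8 ± 2.12 to 8.96 ± 1.45 CPM, a log2FC of -0.80. IL6R, IL4R and EPOR were not called, and 8 of the 22 had no count. LEPR was not tested at a mean of at least 100 counts, where 0 genes were lower. The values of IFNGR1 and IFNAR1 lie near those of LIFR, and no difference between the families was tested.

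Of 14 genes for NCK2 and partners of NCK1, 12 were tested, and 4 were higher, 2 lower and 6 not called, with a median log2FC of 0.14. Calls over all tested genes were 29.4% higher and 28.5% lower. SOS1, a Ras exchange factor, and NCKAP1, a WAVE complex subunit, each had a log2FC of 0.48. PAK2 had 0.26 and WIPF2 0.24. WASL, the actin nucleation factor N-WASP, fell by 0.52 on the log2 scale and the kinase PAK1 by 0.44. NCK2, the close paralogue of NCK1, was not called at 18.8 ± 1.53 and 20.3 ± 2.10 CPM (mean ± SD, n = 4 each). Whether NCK1 and NCK2 differ in their response was not tested.

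**Figure D4:**
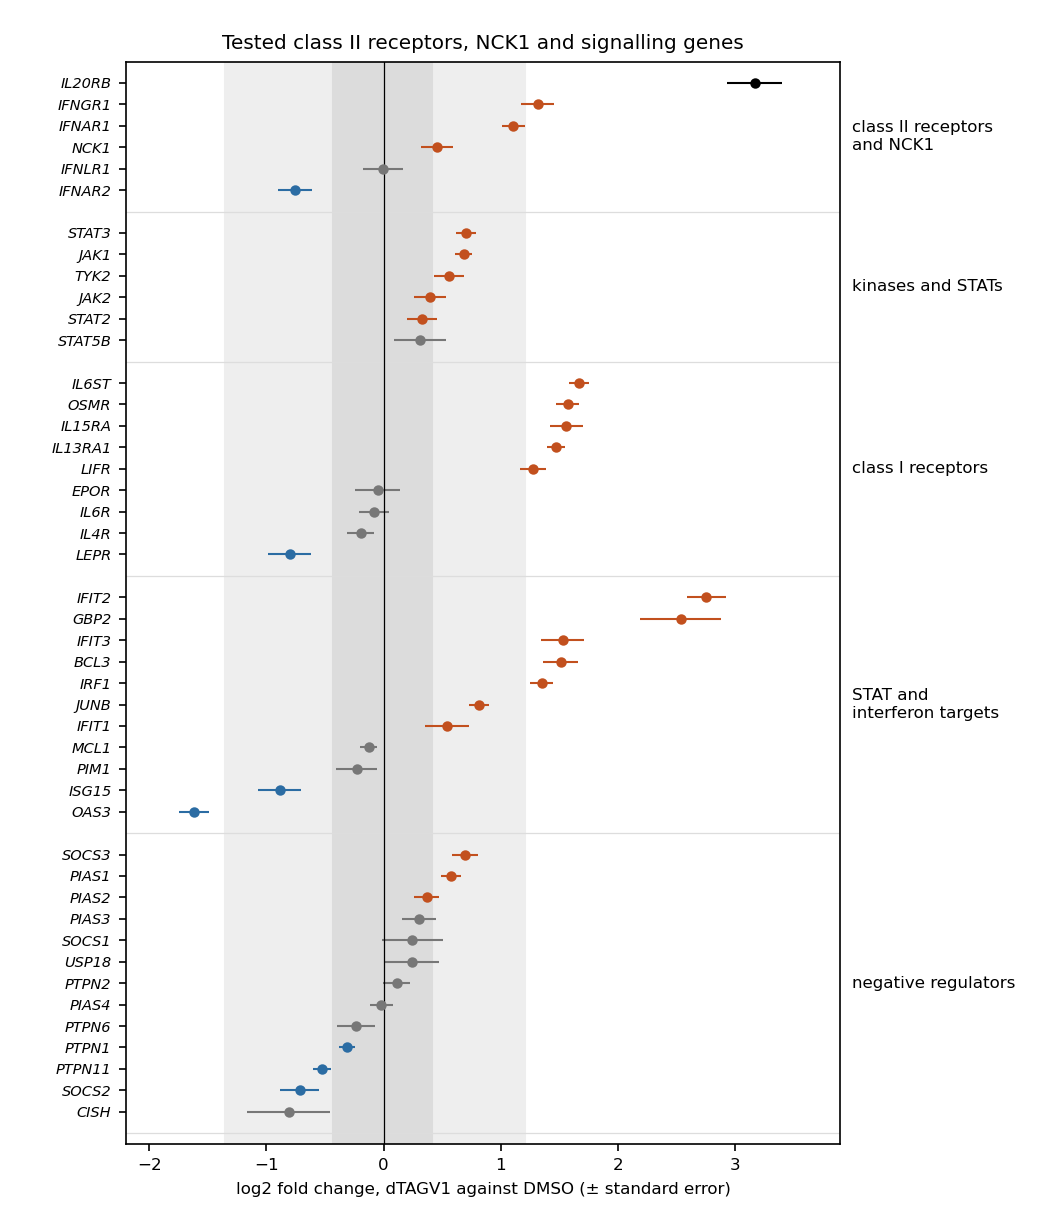
Log2 fold change with standard error of each tested receptor gene and NCK1 (top) and of genes of 4 signalling lists, dTAGV1 against DMSO. Orange and blue mark genes called higher and lower at an adjusted p of 0.05, gray those not called, and black IL20RB, which was chosen by this value. The shaded bands hold the middle 50% and 90% of all 12618 tested genes. IFNGR1 lies above the wider band at 1.32, IFNAR1 inside it at 1.11, and IFNAR2 inside it at -0.76.

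Genes within 250 kb of the 10 genes did not share a common direction. Of 17 tested neighbours, 5 were higher, 5 lower and 7 not called, with a median log2FC of 0.16. The shares over all tested genes were 29.4% higher and 28.5% lower. On chromosome 1, MYOM3, a muscle M-band protein gene 7596 bases from IL22RA1 on the same strand, fell from 5.97 ± 1.78 to 0.633 ± 0.518 CPM (mean ± SD, n = 4 each). Its log2FC was -3.19 (SE 0.45, edgeR, Benjamini-Hochberg adjusted p = 1.47e-06). MYOM3 passed the low-count filter only through the DMSO libraries, where it is high, so its fold rests on few dTAGV1 reads. IL22RA1 and MYOM3 were thus both lower with dTAGV1, and IFNLR1, on the far side of IL22RA1, was at the same mean level in both groups. NIPAL3 and GRHL3 rose there, with log2FC values of 0.70 and 0.68, and PNRC2 and SRSF10 fell, with -0.54 and -0.19, while STPG1 was not called. On chromosome 6, the stress kinase gene MAP3K5 near IL20RA rose by 0.99 on the log2 scale, and PEX7 was not called. On chromosome 21, IFNAR2, IL10RB, IFNAR1 and IFNGR2 span 249447 bases. Beyond them CRYZL1 and ITSN1 rose, with log2FC values of 0.49 and 0.36, and DONSON and GART fell, with -0.82 and -0.34. TMEM50B and SON there, and STAG1, the pseudogene DNAJC8P2 and NCK1-DT near NCK1, did not pass the test.

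The genes whose pattern over the 8 libraries was nearest to that of IL20RB were found by the root mean square difference of log2(CPM + 1), centred for each gene, over 9050 genes with a symbol and a mean of at least 10 CPM. Among the nearest was PURPL, a long noncoding RNA, with a difference of 0.136. Its level was 3.86 ± 1.14 CPM in the DMSO libraries and 32.9 ± 7.25 in the dTAGV1 libraries (mean ± SD, n = 4 each). GCNA, a germ cell acidic nuclear protein, and SEMA3E, a secreted semaphorin, were at 0.253 each, and MSH4, a meiotic mismatch repair homologue, at 0.355. Their log2FC values were 3.07, 2.64, 2.67 and 2.85 in that order. The likeness is dominated by the difference between the 2 groups, which these genes share with IL20RB by construction.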

How the data were processed

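The deposited values are whole-number counts of reads per gene, in the layout of STAR's per-gene output, with counts irrespective of strand, on the gene's strand and on the opposite strand. Per the submitters' processing notes, FastQC, fastp, STAR, HTSeq, DESeq2 and GRCh38 were used; versions, the role of each and the annotation release are not given in the sources used here. Per the labels' protocols, Trizol total RNA went into the Lexogen QuantSeq FWD V2 3′ kit, so counts on the gene's strand were used. Rows for reads given to no gene, 56.7% to 62.8% of a library's reads, stayed out of library sizes. Use of molecular identifiers is not stated, so intervals and floors cover counting error only.

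Counts of all 8 libraries were fitted with edgeR 4.0.16 in R 4.3.3 (filterByExpr at a count minimum of 10, TMM, robust quasi-likelihood F test, Benjamini-Hochberg adjustment over 12618 genes, threshold 0.05), without a replicate term, and tested on simulated data. DESeq2 1.42.0 and limma 3.58.1 were alternatives. Symbols came from a table of names holding 61481 identifiers and coordinates from GENCODE 29. That release held 57356 of the 78932 identifiers in the deposited tables, so the counts were not made with it alone. Promoters are from RefSeq on GRCh38.p14.

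Pairs of libraries within a group differed by more than sampling noise (chi-square divided by its degrees of freedom 1.91 to 5.76), so none was counted as a repeat. The genes described and all lists were chosen with earlier results of these data known. Named genes were the 10 genes, the extremes of each list and list genes whose role is given, tested genes within 250 kb, and the 5 genes nearest in pattern to IL20RB. Some genes that enter these counts are not reported here.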

Additional observations from a re-analysis of the deposited data

How the results depend on the processing

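Over 421 values recomputed under alternatives, 402 kept their direction and their call, or stayed within 1.5 times for counts. Many of these could hardly move, such as calls among the 17 class II ligand genes, with 0 tested in the main fit. All settings draw on the same 8 libraries, so this share does not measure repeatability. The log2 fold change ranged over alternatives from 2.95 to 3.30 for IL20RB, 1.24 to 1.35 for IFNGR1, 1.02 to 1.18 for IFNAR1, 0.38 to 0.54 for NCK1 and -0.08 to 0.09 for IFNLR1. The range for IL20RB is a description only, because the gene was chosen by its increase in these same reads. IFNAR2 changed sign to 0.048 with counts irrespective of strand, because reads in IL10RB-DT exons drop out. The genes that differ numbered 4120 (2131 higher, 1989 lower) at a mean of at least 100 counts, where 6369 genes were tested. The receptor genes and NCK1 other than IL20RB that were lower numbered 2 with no low-count filter, since IL22RA1 joined IFNAR2, 0 at a mean of at least 100 counts and 0 with counts irrespective of strand. With 1 library left out they numbered 1 to 2, and the kinases and STATs called higher 3 to 5. With no low-count filter 1 ligand (IFNE) was lower, and with library size alone 1 kinase or STAT gene was lower. At a mean of at least 100 counts, 4 STAT and interferon targets were higher and 0 class I receptors were lower, from fewer genes tested. DESeq2 called 6738 genes and limma-voom 7287. Deviations of same-numbered libraries correlated at 0.131, -0.0176, 0.0232 and 0.0340, so the numbers were not taken to pair them, and a replicate block called 7434 genes, 7258 of them shared. The opposite-strand test gave no value for these 10 genes, as none passed its filter. Genes with under about 10 counts a library (IL20RA, IL10RB, IFNGR2) are limited by depth and annotation.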
